A study of Canis lupus familiaris with 25 samples.

Results

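HOX genes are the homeobox genes of the HOXA, HOXB, HOXC and HOXD clusters, and they were taken here by symbol alone, without any measured value. Of the 24532 genes in the deposited count table, 34 carried such a symbol, 11 of them in HOXA, 8 in HOXB, 7 in HOXC and 8 in HOXD. HOXB1, HOXB13 and HOXC9 were not analysed here. HOXC8 stood in it as LOC607625, by its gene identifier in the RefSeq annotation of another dog assembly, and its values are given apart from the 34.

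Total RNA from archived, formalin-fixed and paraffin-embedded (FFPE) tumors of dogs was sequenced with QuantSeq 3′, which makes 1 fragment per transcript close to the poly(A) tail. There were 10 hepatoid gland adenomas (HGA), benign tumors of the perianal glands, 11 primary apocrine gland anal sac adenocarcinomas (AGASAC), which are malignant, and 4 sublumbar lymph node metastases. Metastases 1 to 4 came from the dogs of AGASAC 1 to 4, and all other dogs gave 1 tumor each. The dogs were of both sexes, neutered or intact, and were 8 to 14 years old in HGA, 8 to 12.5 years in primary AGASAC and 8 to 10 years for the metastases. Intact males were among the HGA dogs only, and the part of sex or neutering was not tested. The authors cut away tissue beside the tumor and took RNA from whole cross sections of what remained, so fewer cells of a type and less RNA per cell cannot be told apart in any value given here. DV200, the share of RNA fragments above a set length and a measure of RNA quality, was 70.5% to 92.7% in HGA, 70.2% to 84.4% in primary AGASAC and 71.8% to 82.9% in the metastases.

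The counts on genes ran from 1562347 to 6389555 per sample in HGA (median 2506085) and from 2581453 to 4218340 in primary AGASAC (median 2950459). For the metastases they were 2857541 to 3289546 (median 3102626). Levels are given as CPM, counts relative to the scaled library total, and they were compared between samples, not between genes. Where no read was counted, up to 3 counts per library remain possible, which was 0.543 to 1.84 CPM in HGA, 0.729 to 1.05 CPM in primary AGASAC and 0.796 to 0.973 CPM in the metastases. No molecular identifiers were stated for the reads, so these floors cover counting error only. Neighboring HOX genes share or overlap their transcribed spans in the RefSeq annotation of the other dog assembly, among them HOXA3 to HOXA6, HOXB3 to HOXB6, HOXB8 with HOXB9, and HOXC4 with HOXC5, HOXC6 and HOXC8. The authors counted reads on the annotation of CanFam3.1 first, and those left over were counted again with genes lengthened at the 3′ ends. The paper describes QuantSeq 3′ libraries as strand-specific, but its text gives no strand setting for the counting. Where spans are shared there too, reads may be credited to either neighbor.

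HOX proteins are transcription factors that give cells their position along the body axis during development. Within each cluster the genes lie in the order in which they act from head to tail, so low numbers mark anterior and high numbers posterior positions, and genes of the same number in different clusters are paralogs. Adult skin, glands and connective tissue keep a HOX pattern that reflects where in the body they formed, and HOX proteins bind DNA with TALE homeodomain partners, among them the MEIS and PKNOX families.

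Levels of markers of each gland are given by tumor label. The markers were chosen with earlier results of these data known, so they are no independent check of the labels. Of them CDH1, listed as apocrine, was not called between HGA and primary AGASAC. The summed level of 5 hepatoid markers (KRT5, KRT14, KRT79, CIDEA and TP63) was 4944 to 17549.6 CPM (median 7729) in HGA, 0 to 30.5 CPM (median 3.45) in primary AGASAC and 0.531 to 18.5 CPM (median 4.86) in the metastases. KRT14 was most often the most abundant of them in HGA, KRT79 had 0 counts in every primary AGASAC and CIDEA had 0 counts in every metastasis. The summed level of 5 apocrine markers (KRT8, KRT18, KRT19, PIP and CDH1) was 4394 to 9899 CPM (median 6529) in primary AGASAC, 3837 to 9267 CPM (median 6159) in the metastases and 192 to 1200.0 CPM (median 891) in HGA, where CDH1 was most often the most abundant. HGA 10 stood apart from the other HGA, with KRT79 at 39.1 CPM against 977 to 2427 CPM and CIDEA at 386 CPM against 1409 to 2365 CPM in the other 9, while its KRT14 stood at 2615 CPM. Without HGA 10, 5 of the 14 HOX genes tested were called between HGA and primary AGASAC, against 27.3% of all genes. HOXC13, dropped by the filter on low counts when HGA 10 was kept, passed it through HGA alone and was called. Nothing is therefore read from that count. HOXD3 was not called, as in 18 of the 21 tests that each left out 1 sample. Between metastases and HGA, 4 HOX genes were called in place of 3, with HOXC10 added, against 19.5% of all genes.

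The comparison of HGA with primary AGASAC, on which the study tested its expression assays, asks how benign and malignant tumors of neighboring glands differ. The tumors differ in cell of origin as well as in malignancy, so the parts of origin and malignancy cannot be told apart here. Of the summed cluster levels, only HOXD did not overlap between the groups. The summed level of the 8 HOXD genes was 397 to 785 CPM (median 560.0) in HGA and 2.68 to 207 CPM (median 17.7) in primary AGASAC, with no overlap, and 7.03 to 390.1 CPM (median 42.2) in the metastases. The 11 HOXA genes summed to 1.29 to 78.2 CPM (median 23.1) in HGA, 8.49 to 503 CPM (median 117) in primary AGASAC and 38.3 to 612 CPM (median 84.7) in the metastases. HOXA sums were higher at the median in AGASAC, yet both AGASAC groups overlapped HGA. The 7 HOXC genes summed to 102 to 389 CPM (median 167) in HGA, 176 to 919 CPM (median 438) in primary AGASAC and 197 to 789 CPM (median 412) in the metastases, again with overlap. The 8 HOXB genes summed to 15.5 to 50.1 CPM (median 26.2) in HGA, 1.31 to 356 CPM (median 26.5) in primary AGASAC and 2.27 to 277 CPM (median 19.6) in the metastases, so HGA lay within the range of the primary AGASAC.

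**Figure D1:**
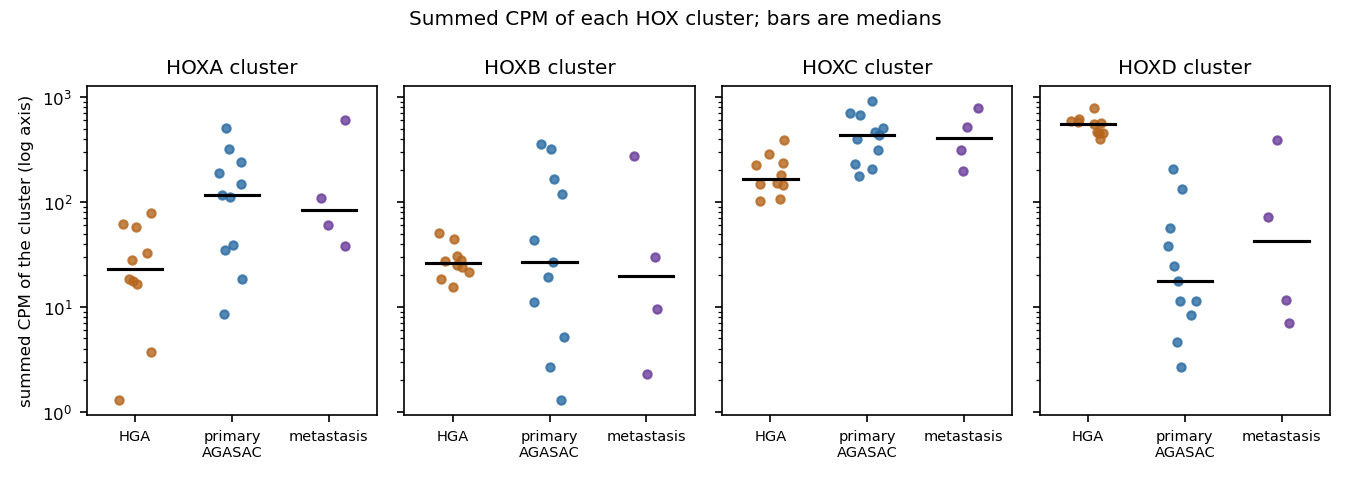
Summed CPM of the HOX genes of each cluster, on a log axis, in 10 HGA, 11 primary AGASAC and 4 metastases, with each point a sample and each bar a median. The HOXD sums of HGA start at 397 CPM, above every primary AGASAC (up to 207 CPM), whereas the groups overlap in the other clusters.

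Of the 34 HOX genes, HOXC11, HOXC12 and HOXD12 had at most 3 counts in each of the 25 samples. In every HGA 7 were above 3 counts (HOXC4, HOXC6, HOXC13, HOXD3, HOXD8, HOXD9 and HOXD11), in every primary AGASAC 4 (HOXA10, HOXC4, HOXC5 and HOXC6), and in every metastasis 8 (HOXA5, HOXA9, HOXA13, HOXC4, HOXC5, HOXC6, HOXD3 and HOXD8). HOXB9, HOXC13, HOXD1 and HOXD12 had 0 counts in all 11 primary AGASAC. HOXC4 and HOXC6 were thus above 3 counts in all 25 samples.

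**Figure D2:**
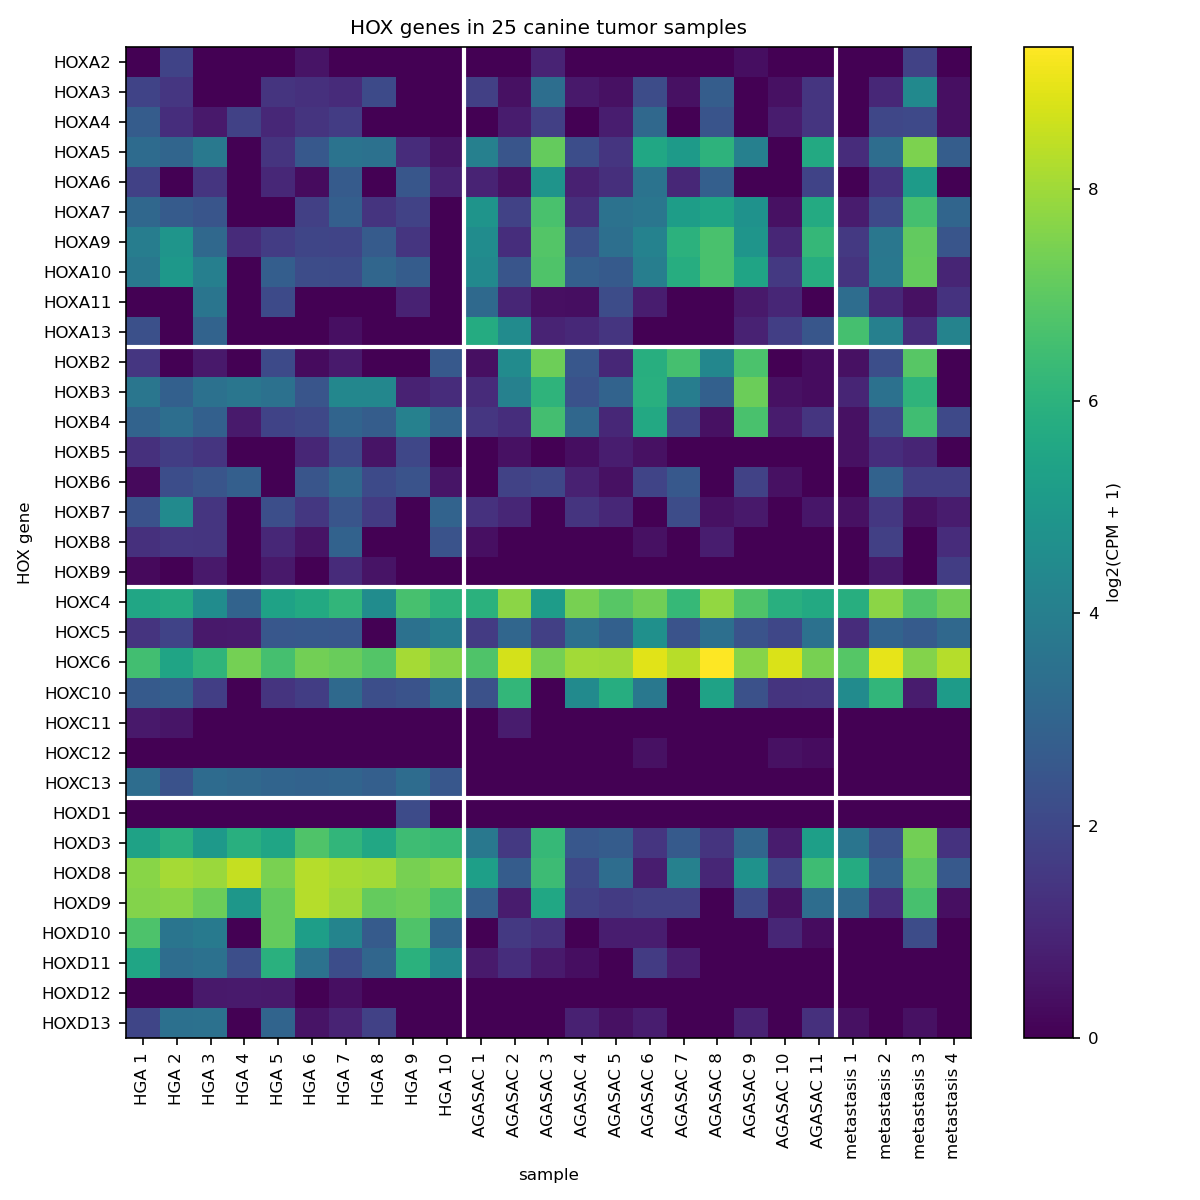
Level of 33 HOX genes (vertical axis, in the order of the clusters) in each of the 25 samples (horizontal axis), as log2 of CPM plus 1, with white lines between clusters and groups. HOXD8 is lighter in every HGA than in any AGASAC or metastasis, HOXC13 is at 0 in every AGASAC and metastasis, and AGASAC 3 and metastasis 3, from the same dog, are light over HOXA5 to HOXA10, HOXB2 to HOXB4 and HOXD3 to HOXD9.

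Between HGA and primary AGASAC, 5 of the 13 HOX genes with enough counts to be tested were called by the quasi-likelihood test of edgeR under Benjamini-Yekutieli adjustment, with the adjusted p no higher than 0.05 and a log2 fold change (log2FC) of at least 1 in size, against 25.1% of all 12070 genes tested. HOXD3, HOXD8 and HOXD9 were higher in HGA, where 12.6% of all genes were, and HOXA7 and HOXC6 were lower, where 12.5% were. The median log2FC, HGA minus primary AGASAC, of the 13 was −1.63, against −0.03 over all genes tested, and 11 of the 13 had an unadjusted p under 0.05, as had 6477 of the 12070. The filter on low counts dropped the other 21 HOX genes, and a gene that passed it had to have counts in many samples, so the 13 do not stand for all HOX genes. HOXD3, HOXD8 and HOXD9 could pass it through HGA alone, so nothing is read from the count of 5 in 13 against all genes. With no filter, 8 of 34 were called against 16.2% of 24332 genes, 5 higher in HGA against 7.85% and 3 lower against 8.39%. HOXC13, HOXD8 and HOXD11, 3 of 34, had no overlap between the groups, which 5.01% of the 24332 genes showed. Leaving out 1 sample gave 3 to 6 calls, against 23.9% to 27.3% of all genes, with 3 without AGASAC 2, without HGA 1 or without HGA 6.

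**Figure D3:**
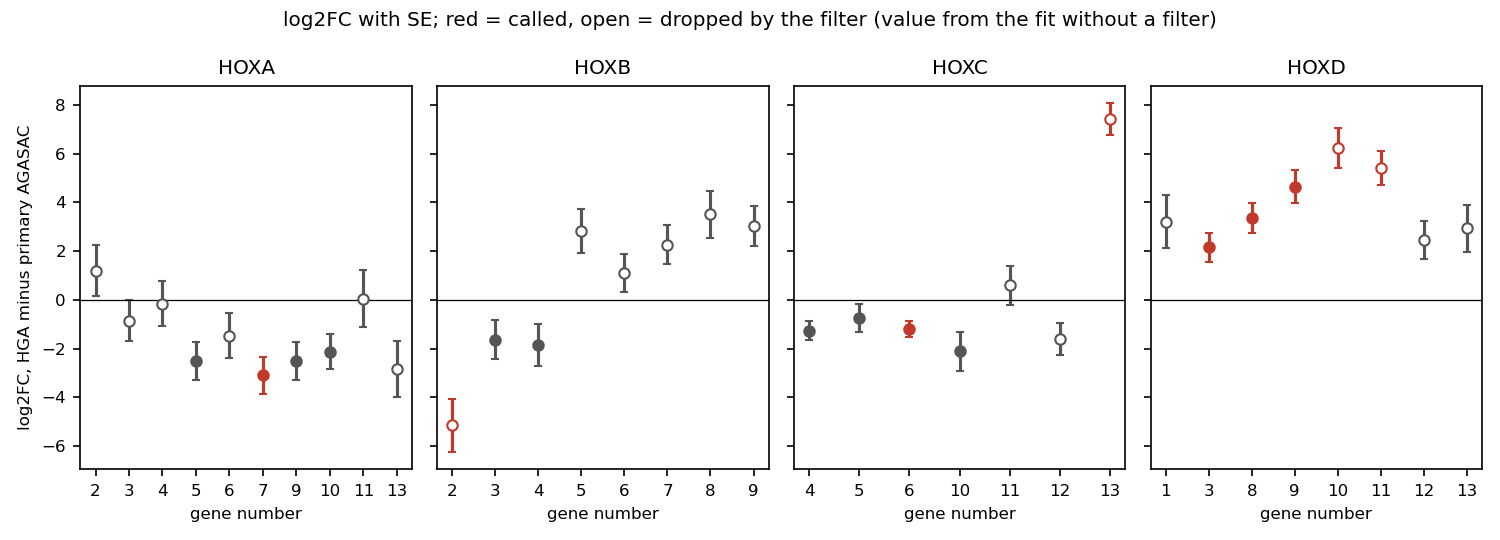
log2FC, HGA minus primary AGASAC, with its standard error for 33 HOX genes, by cluster (panels) and gene number (horizontal axis), where red marks called genes and open points genes dropped by the filter, with values from the test without a filter. HOXD3 and HOXD8 to HOXD11 lie above 0, as they did under each scaling tried, and HOXD9 stands at 4.63. Points of genes with 0 counts in every primary AGASAC (HOXB9, HOXC13, HOXD1 and HOXD12) depend on the constant the test adds to counts.

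HOXD3, the most anterior HOXD gene with counts in most samples, ran from 31.9 to 108 CPM (median 58.5) in HGA and from 0.653 to 76.2 CPM (median 5.24) in primary AGASAC. Of these, AGASAC 3 and AGASAC 11, at 76.2 and 37.9 CPM, reached into the range of HGA, and 9 of 11 primary AGASAC lay below every HGA. The log2FC of HOXD3 was 2.17 (SE 0.60, adjusted p = 0.0448). That call was lost in 18 of the 21 tests that each left out 1 sample, with adjusted p of up to 0.0908. Over all 21 tests the log2FC ran from 2.03 to 2.97, the highest without AGASAC 3, where the call was kept. The call was also lost with no filter (adjusted p = 0.0671) and with library size alone as the scaling, where the log2FC was 1.86 (adjusted p = 0.115). HOXD1, which acts near the head end, had counts in HGA 9 alone, at 3.39 CPM.

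HOXD8, a gene of the trunk region, ran from 171 to 367 CPM (median 252) in HGA, a mean of 247 ± 63.4 CPM (SD, n = 10). In primary AGASAC it ran from 0.689 to 85.3 CPM (median 9.02), a mean of 24.6 ± 31.6 CPM (SD, n = 11). Every HGA was above every primary AGASAC, of which AGASAC 11 and AGASAC 3 were the highest at 85.3 and 83.0 CPM. The log2FC was 3.36 (SE 0.62, adjusted p = 0.00106), and leaving out any 1 sample kept it called, at 3.22 to 3.76. HOXD9, which helps pattern the lower spine and hind limb, ran from 29.5 to 314 CPM (median 152) in HGA, a mean of 167 ± 79.2 CPM (SD, n = 10). In primary AGASAC it ran from 0 to 45.7 CPM (median 2.45), a mean of 6.75 ± 13.2 CPM (SD, n = 11). In 9 of 10 HGA it lay above every primary AGASAC, and HGA 4 lay below AGASAC 3, at 29.5 against 45.7 CPM. The log2FC of HOXD9 was 4.63 (SE 0.68, adjusted p = 5.24e-05) and stayed called whichever sample was left out, at 4.49 to 5.83, the highest without AGASAC 3.

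The posterior genes HOXD10 and HOXD11 did not pass the filter. HOXD10, known for its part in hind limb motor neurons and limb patterning, ran from 0 to 139 CPM (median 15.2) in HGA and from 0 to 1.96 CPM (median 0.243) in primary AGASAC. It was high in HGA 1, HGA 5 and HGA 9, at 106, 139 and 108 CPM, and had 0 counts in HGA 4, while the other 9 HGA lay above every primary AGASAC. HOXD11, a gene of limb and kidney patterning, ran from 3.64 to 61.5 CPM (median 10.3) in HGA and from 0 to 2.07 CPM (median 0.278) in primary AGASAC. The same HGA 1, HGA 5 and HGA 9 were highest in HOXD11, at 43.4, 59.9 and 61.5 CPM, and the groups did not overlap. Without the filter the log2FC was 6.23 (SE 0.84, adjusted p = 1.98e-05) for HOXD10 and 5.41 (SE 0.71, adjusted p = 1.49e-05) for HOXD11. HOXD13, a gene of digit and hindgut formation, reached 9.94 and 10.3 CPM in HGA 2 and HGA 3 and at most 1.46 CPM in primary AGASAC, and its log2FC was 2.93 (SE 0.96, adjusted p = 0.213), which missed the threshold.

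RNA was extracted in batches, which the study's sample sheet lists. Batch 5 held 3 HGA and 3 primary AGASAC, batch 6 held 3 and 2, and batch 8 held 2 and 3. Within batch 5, 6 and 8, the log2FC of HOXD8 was 2.69 (adjusted p = 0.31), 6.79 (adjusted p = 0.00744) and 4.11 (adjusted p = 0.173). HOXD9 had 2.68 (adjusted p = 1), 6.19 (adjusted p = 0.00417) and 6.59 (adjusted p = 0.0393) in the same batches. For HOXD3 they were 1.14 (adjusted p = 1), 3.88 (adjusted p = 0.0359) and 3.76 (adjusted p = 0.145). All 9 of these values were above 0. Batch 7 held 1 of each. With the batch as a term, which left out HGA 10, AGASAC 10 and AGASAC 11, the log2FC was 4.42 (adjusted p = 0.00022) for HOXD8, 5.2 (adjusted p = 0.000473) for HOXD9 and 2.88 (adjusted p = 0.00574) for HOXD3. The sequencing files follow more than 1 naming series, and within series A, with 9 HGA and 3 primary AGASAC and without AGASAC 4, whose series could not be read, the log2FC was 2.60 (adjusted p = 0.0265) for HOXD8, 3.32 (adjusted p = 0.0975) for HOXD9 and 1.02 (adjusted p = 1) for HOXD3.

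**Figure D4:**
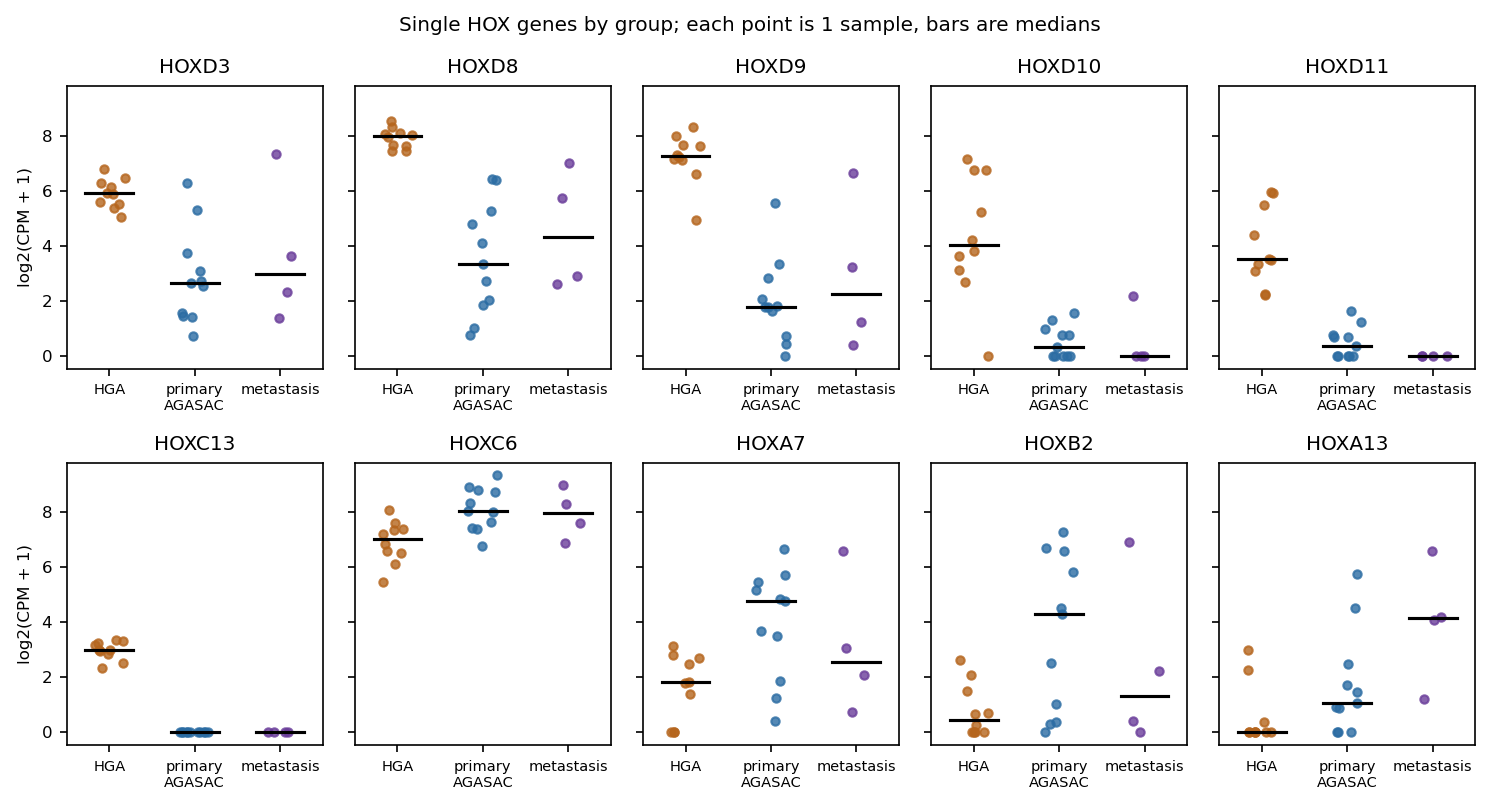
Level of 10 HOX genes as log2 of CPM plus 1 (vertical axis) in 10 HGA, 11 primary AGASAC and 4 metastases, where each point is a sample and each bar a median. HOXC13 is at 0 in every AGASAC and above 0 in every HGA, and HOXC6, HOXA7 and HOXB2 have higher medians in primary AGASAC than in HGA, at 262 against 129 CPM for HOXC6.

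In the HOXC cluster HOXC13 was higher and HOXC6 lower in HGA. HOXC13, the most posterior of the cluster and a regulator of hair keratin genes in the follicle and nail, ran from 4.07 to 9.22 CPM (median 7.00) in HGA, at 9 to 51 counts per library. It had 0 counts in all 11 primary AGASAC, and its mean in HGA was at least 7.51-fold higher than the floor of 3 counts per library in primary AGASAC. Without the filter edgeR called it with an adjusted p = 1.91e-06, in each of 10 HGA against 11 primary AGASAC. Of 7 hair follicle markers 2 were tested, 0 were called higher, against 12.6% of all genes, and MSX2 was called lower, against 12.5%, with a log2FC of −5.15 (SE 0.69, adjusted p = 1.64e-05). MSX2 could pass the filter through primary AGASAC alone, so nothing is read from that count. TCHH, the other hair follicle marker tested, had a log2FC of −1.43 (SE 0.68, adjusted p = 0.871). The keratins among the hair follicle markers were too low to be tested and had more counts in HGA. There KRT71, KRT85, KRT35 and KRT75 reached 3.16, 6.15, 2.46 and 4.11 CPM, against 0, 0.335, 0 and 0.904 CPM in primary AGASAC. They had 0 counts in 5, 5, 7 and 6 of the 10 HGA. HOXC10, which marks lumbar levels of the spinal cord, ran from 0 to 9.46 CPM (median 3.97) in HGA and from 0 to 71.6 CPM (median 4.01) in primary AGASAC. It was highest in AGASAC 2, AGASAC 5 and AGASAC 8, had 0 counts in AGASAC 3, AGASAC 7 and HGA 4, and its log2FC of −2.11 (SE 0.81, adjusted p = 0.349) missed the threshold.

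HOXC6, a gene of the thoracic region and the mammary gland, ran from 42.5 to 268 CPM (median 129) in HGA and from 108 to 645 CPM (median 262) in primary AGASAC. The groups overlapped, with 4 HGA below every primary AGASAC and 5 primary AGASAC above every HGA. The log2FC was −1.20 (SE 0.32, adjusted p = 0.0352). That call was lost in 12 of the 21 tests that each left out 1 sample, with adjusted p of up to 0.081, and with the extraction batch as a term, where the log2FC was −1.29 (adjusted p = 0.0845). Within batch 5, 6 and 8 it was −0.31, −2.26 and −0.75, with adjusted p of 1, 0.107 and 1. HOXC4, its anterior neighbor, ran from 6.76 to 97.1 CPM (median 47.6) in HGA and from 35.0 to 224 CPM (median 107) in primary AGASAC, with a log2FC of −1.26 (SE 0.37, adjusted p = 0.0784), which missed the threshold, while DESeq2 called it (adjusted p = 0.0316), as did edgeR with library size alone (adjusted p = 0.0127). HOXC8, counted as LOC607625, ran from 28.1 to 181 CPM (median 51.1) in HGA and from 2.97 to 630.1 CPM (median 216) in primary AGASAC. The sample AGASAC 3, the highest primary AGASAC in HOXD3 and HOXD9, was the lowest in LOC607625, and the log2FC of −1.85 (SE 0.52, adjusted p = 0.0495) was lost in 18 of the 21 tests that each left out 1 sample, with adjusted p of up to 0.114.

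The 4 HOXA genes that could be tested had log2FC below 0 under each scaling tried, and 1 of them was called lower in HGA by edgeR, and 3 by DESeq2. HOXA7, a gene of trunk patterning, ran from 0 to 7.78 CPM (median 2.5) in HGA and from 0.326 to 101 CPM (median 26.1) in primary AGASAC. HGA 4, HGA 5 and HGA 10 had 0 counts, 8 of 11 primary AGASAC lay above every HGA, and AGASAC 10, AGASAC 4 and AGASAC 2 lay within their range. The log2FC was −3.10 (SE 0.75, adjusted p = 0.0158), and it stayed called whichever sample was left out, at −3.38 to −2.69. With the extraction batch as a term it was −2.57 (adjusted p = 0.136), and within batch 5, 6 and 8 it was −5.11, −0.47 and −1.64, with adjusted p of 0.102, 1 and 1. HOXA10, known from the uterus and lower spine, ran from 0 to 30.7 CPM (median 5.72) in HGA and from 1.96 to 109 CPM (median 20.5) in primary AGASAC. It had 0 counts in HGA 4 and HGA 10, 5 primary AGASAC lay above every HGA, and the log2FC of −2.13 (SE 0.71, adjusted p = 0.171) missed the threshold. HOXA5, needed for lung formation, and HOXA9 had log2FC of −2.5 (SE 0.77, adjusted p = 0.0971) and −2.5 (SE 0.77, adjusted p = 0.0968). DESeq2 called both, with adjusted p of 0.0244 and 0.0177, as did edgeR with library size alone, with 0.0407 and 0.041. Within batch 6 the log2FC of HOXA9 and HOXA10 was 0.61 and 0.69, on the other side of 0.

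HOXA13, the most posterior of the cluster and a gene of hindgut, genital and digit formation, was dropped by the filter. It ran from 0 to 6.84 CPM (median 0) in HGA and from 0 to 52.7 CPM (median 1.11) in primary AGASAC. It was high in AGASAC 1 and AGASAC 2, at 52.7 and 21.9 CPM, and had 0 counts in 7 of 10 HGA and 3 of 11 primary AGASAC. Its log2FC without the filter, −2.82 (SE 1.15, adjusted p = 0.599), was not called, and it moved to −1.58 without AGASAC 1 and to −3.70 without HGA 3. HOXA2, a gene of the hindbrain, stayed at or under 2.71 CPM in HGA and primary AGASAC.

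In the HOXB cluster no gene that passed the filter was called. HOXB2, a hindbrain gene, was dropped by it and ran from 0 to 5.16 CPM (median 0.387) in HGA and from 0 to 153 CPM (median 18.8) in primary AGASAC. The primary AGASAC fell apart in HOXB2, with AGASAC 3, AGASAC 9, AGASAC 7 and AGASAC 6 at 153, 103, 94.7 and 56.2 CPM and AGASAC 1, AGASAC 10 and AGASAC 11 at 0.301, 0 and 0.243 CPM. Without the filter its log2FC was −5.15 (SE 1.07, adjusted p = 0.0054). HOXB3 and HOXB4 were high in AGASAC 3, AGASAC 6 and AGASAC 9 too, with HOXB3 at 67.0, 58.2 and 151 CPM and HOXB4 at 93.4, 48.9 and 99.8 CPM. Their log2FC were −1.63 (SE 0.80, adjusted p = 0.975) and −1.83 (SE 0.86, adjusted p = 0.834). Without AGASAC 9 they were −0.86 and −1.26. HOXB5 to HOXB9, further back in the cluster, had fitted log2FC above 0 without the filter and were not called by edgeR, with HOXB8 nearest at 3.50 (SE 0.96, adjusted p = 0.0664). HOXB8 was called in 4 of the 21 tests that each left out 1 sample, with adjusted p down to 0.0265, and by DESeq2 (adjusted p = 0.0294).

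HGA 4 and HGA 10 had fewer HOX genes above 3 counts, at 10 and 14, than the other HGA, at 17 to 25. Their HOXA genes summed to 3.69 CPM in HGA 4 and 1.29 CPM in HGA 10. HGA 4 had the fewest counts on genes of all samples, 1562347, and the sample sheet places it at the dorsal base of the tail, while it lists the other HGA as perianal, HGA 5 at the ventral base of the tail. HOXD8 was at its highest in the same sample, at 367 CPM. Whether depth or site had a part in these values was not tested. The primary tumor AGASAC 10 had 7 HOX genes above 3 counts, and the other primary tumors had 14 to 18.

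Each of the 4 metastases was set against the primary tumor of its dog, which asks what differs between a tumor and its spread in the lymph node. Within 3 of the 4 dogs the HOX pattern of the metastasis was closest to that of its own primary tumor, and no HOX gene was called. edgeR's quasi-likelihood test called 0 of the 15 HOX genes tested, and 0% of all 12629 genes, while 19 HOX genes were dropped by the filter. An unadjusted p under 0.05 was reached by 0 of the 15 HOX genes and by 145 of the 12629 genes in this unpaired test, and by 2 and 491 with the dog as a block. DESeq2 called 0 HOX genes and 5 genes in all, and the test with the dog as a paired replicate block called 0 HOX genes and 1 gene in all. The log2FC, metastasis minus primary, ran from −0.56 (SE 1.79) for HOXB2 to 0.97 (SE 1.54) for HOXD9, with a median of 0.19 against 0.00 over all genes. Both ends depended on dog 3 in this unpaired test, where HOXD9 had −2.05 without metastasis 3 and 3.12 without AGASAC 3, and HOXB2 had −4.94 and 1.76. With the dog as a block they were 0.43 (SE 0.50, adjusted p = 1) and −1.51 (SE 0.58, adjusted p = 1). HOXD9 was higher in the metastasis in dogs 1, 2 and 3 and lower in dog 4. HOXC6 was higher in the metastasis in all 4 dogs, at 108, 420.2, 167 and 262 CPM in the primaries and 117, 504, 194 and 313 CPM in the metastases, with a log2FC of 0.21 (SE 0.14, adjusted p = 1) in the test with the dog as a block. HOXD8 was higher in all 4 too, at 37.4, 5.56, 83.0 and 3.06 CPM in the primaries and 52.6, 6.37, 128 and 5.11 CPM in the metastases. HOXD11 had 2, 4, 2 and 1 counts in the primaries and 0 counts in the metastases. Only AGASAC 2 was above the floor of 3 counts, so no direction is read from HOXD11.

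Dog 3 stood out in many HOX genes in its primary tumor as in its metastasis. In AGASAC 1, 2, 3 and 4, HOXD9 stood at 6.03, 0.654, 45.7 and 2.5 CPM, and in metastases 1, 2, 3 and 4 at 8.44, 1.33, 98.4 and 0.319 CPM. HOXB2 stood at 0.301, 21.9, 153 and 4.73 CPM in the primaries and at 0.324, 3.71, 119 and 0 CPM in the metastases. HOXC8, as LOC607625, showed the reverse, at 216, 203, 2.97 and 199 CPM and 123, 302, 4.18 and 209 CPM, so dog 3 was the high dog in HOXD9 and HOXB2 and the low dog in LOC607625. HOXC10 was low in dog 3 too, at 3.92, 71.6, 0 and 21.1 CPM in the primaries and 21.7, 69.2, 0.643 and 34.2 CPM in the metastases. HOXA13 was high in dog 1 and dog 2, at 52.7, 21.9, 0.890 and 1.11 CPM and 95.1, 15.9, 1.29 and 17.3 CPM, and metastasis 4 was higher than its primary tumor. HOXA7 was lower in metastasis 1 than in AGASAC 1, at 0.649 against 27.4 CPM.

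Counting genes above 3 counts, dog 1 had 17 HOX genes in the primary tumor and 12 in the metastasis, of which 12 were in both. HOXA3, HOXA7, HOXB3, HOXB4 and HOXB7 were above 3 counts in its primary tumor alone. Dog 2 had 18 and 23 with 15 in both, dog 3 had 18 and 20 with 18 in both, and dog 4 had 16 and 15 with 11 in both. Over 21 HOX genes, Spearman's rho across genes between a metastasis and the primary tumor of its dog was 0.83, 0.86, 0.91 and 0.48 in dogs 1 to 4. The highest rho with any of the other 10 primary tumors was 0.75, 0.69, 0.78 and 0.71. The own primary tumor was thus the closest for metastases 1, 2 and 3, while 5 of the 10 others were closer to metastasis 4. Over all 12629 genes the own primary tumor was the closest for all 4 metastases, at 0.966, 0.921, 0.943 and 0.906. Genes are not independent replicates, and these rho values carry no test.

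**Figure D5:**
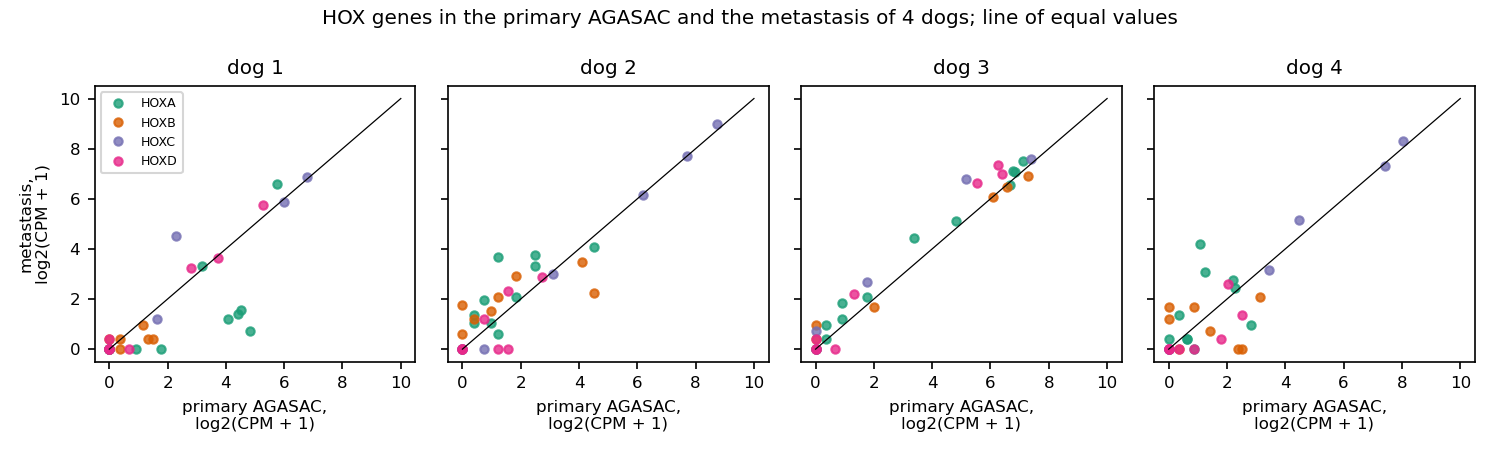
Level of the 34 HOX genes as log2 of CPM plus 1 in the primary AGASAC (horizontal axis) and the metastasis (vertical axis) of each of 4 dogs, colored by cluster, with a line of equal values. The points of dog 3 lie near the line up to the highest levels, and in dog 1 HOXA7, at 27.4 CPM in the primary tumor and 0.649 CPM in the metastasis, is among the HOXA genes below it.

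Between metastases and HGA, a comparison that shares its HGA samples with the first, HOXC13 and HOXD11 were lower and HOXA13 was higher in the metastases. The quasi-likelihood test of edgeR under Benjamini-Yekutieli adjustment called these 3 of the 18 HOX genes tested, against 16.1% of all 13195 genes. HOXC13 and HOXD11 had 0 counts in all 4 metastases and entered the 18 through HGA alone, so nothing is read from that share. The share of all genes called was 7.69% for higher and 8.40% for lower in the metastases. The median log2FC, metastasis minus HGA, of the 18 was 1.03, also with HOXC13 and HOXD11 set at their bounds, against −0.02 over all genes. The filter dropped 16 HOX genes. HOXC11, HOXC12, HOXC13, HOXD1, HOXD11 and HOXD12 had 0 counts in all 4 metastases.

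HOXC13 had 0 counts in all 4 metastases, so its mean in HGA was at least 7.62-fold higher than their floor of 3 counts per library, and with no filter the adjusted p was 0.000286. HOXD11 too had 0 counts in all 4 metastases, and its mean in HGA was at least 24.8-fold higher than that floor, with an adjusted p of 0.003 with no filter. Each HGA lay above 3 counts in both genes. HOXA13 stood at 95.1, 15.9, 1.29 and 17.3 CPM in metastases 1 to 4, against 0 to 6.84 CPM (median 0) in HGA. Metastases 1, 2 and 4 lay above every HGA, and metastasis 3 lay within their range. The log2FC was 4.81 (SE 1.1, adjusted p = 0.0311). That call was lost in 8 of the 13 tests that each left out 1 sample and in which it passed the filter, those without metastasis 1, 2 or 4 or without HGA 2, 5, 6, 7 or 8, and the log2FC was lowest without metastasis 1, at 3.37 (adjusted p = 0.551). Those 8 adjusted p ran from 0.0501 to 0.551. Without HGA 3 it did not pass the filter, and DESeq2 gave 4.91 (adjusted p = 0.524).

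Metastasis 3 was the highest metastasis in HOXD3, HOXD8 and HOXD9. HOXD8 stood at 52.6, 6.37, 128 and 5.11 CPM in metastases 1 to 4, all below the lowest HGA, 171 CPM, and the log2FC of −2.39 (SE 0.65, adjusted p = 0.0957) missed the threshold. HOXD9 stood at 8.44, 1.33, 98.4 and 0.319 CPM and HOXD3 at 11.4, 3.98, 160.2 and 1.60 CPM, so metastasis 3 lay within the HGA in HOXD9 and above every HGA in HOXD3. Their log2FC were −2.62 (SE 0.96, adjusted p = 0.46) and −0.51 (SE 0.77, adjusted p = 1). Without metastasis 3, 7 of the 19 HOX genes tested were called in place of 3, against 11.5% of all genes. HOXC13, HOXD11, HOXD3, HOXD8 and HOXD9 could pass the filter through HGA alone, so nothing is read from that count. HOXC13, HOXD11 and HOXA13 stayed called. Added were HOXD8 at −3.58 (adjusted p = 0.00679), HOXD9 at −5.67 (adjusted p = 0.0019) and HOXD3 at −3.50 (adjusted p = 0.00275). HOXC10 was added too, at 3.23 (adjusted p = 0.00843). HOXD10 had 0 counts in metastases 1, 2 and 4 and 3.54 CPM in metastasis 3, and its log2FC of −5.63 (SE 1.5, adjusted p = 0.0871) missed the threshold. With 1 sample left out it ran from −10.04 to −5.19, the lowest without metastasis 3, where the remaining metastases had 0 counts. It was called only without HGA 4 (adjusted p = 0.0361). DESeq2 called HOXD8 with an adjusted p = 0.0034 and HOXD10 with an adjusted p = 0.0109.

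In the other clusters, the levels of metastases 2 and 4 lay high in HOXC genes and those of metastasis 3 in HOXA genes. HOXC6 stood at 117, 504, 194 and 313 CPM in metastases 1 to 4, of which metastases 2 and 4 lay above every HGA, and its log2FC was 1.04 (SE 0.41, adjusted p = 0.663). Without metastasis 2 that log2FC was 0.60. HOXC10 stood at 21.7, 69.2, 0.643 and 34.2 CPM, with metastases 1, 2 and 4 above every HGA, and its log2FC was 2.82 (SE 0.71, adjusted p = 0.0619). DESeq2 called it with an adjusted p = 0.0165, as did edgeR with library size alone, with 0.0262. HOXA7 and HOXA10 were above every HGA in metastasis 3 only, at 93.9 and 139 CPM, and their log2FC were 3.05 (SE 0.97, adjusted p = 0.233) and 2.19 (SE 1.01, adjusted p = 1). Without metastasis 3 that of HOXA7 was 0.26 (adjusted p = 1) and that of HOXA10 was −0.74 (adjusted p = 1), on the other side of 0.

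Of 9 listed TALE cofactors, which bind DNA beside HOX proteins, 6 were tested between HGA and primary AGASAC, 1 was called higher and 2 lower in HGA, where 12.6% and 12.5% of all genes were, and 3 were not called, PKNOX1 among them at −0.34 (SE 0.38, adjusted p = 1). PKNOX2 could pass the filter through HGA alone and MEIS1 through AGASAC alone, so nothing is read from that count. MEIS1 ran from 0 to 12.9 CPM (median 1.35) in HGA and from 55.9 to 118 CPM (median 74.1) in primary AGASAC, with no overlap, and its log2FC was −4.51 (SE 0.62, adjusted p = 2.26e-05). PKNOX2 was higher in HGA, at 14.2 to 191 CPM (median 24.9) against 0 to 0.972 CPM (median 0), with a log2FC of 7.52 (SE 0.69, adjusted p = 5.61e-08). Against HGA, the metastases had MEIS1 at 4.37 (SE 0.86, adjusted p = 0.00984) and PKNOX2 at −6.38 (SE 1.09, adjusted p = 0.00305), 1 of 9 tested cofactors in each direction, against 7.69% higher and 8.40% lower of all genes. Here too PKNOX2 could pass the filter through HGA alone and MEIS1 through the metastases alone, so nothing is read from these counts.

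Polycomb and trithorax proteins keep HOX genes silent or active after the embryo has set their pattern. All 22 listed regulators were tested between HGA and primary AGASAC, and 1 was called higher and 5 lower in HGA, against 12.6% and 12.5% of all genes. The 6 called of 22 are near the 25.1% of all genes called in either direction, so the count is no result about these regulators. Their median log2FC was −0.47. CBX2, of the Polycomb repressive complex PRC1, had 1.91 (SE 0.35, adjusted p = 0.000938). Lower in HGA were BMI1 of PRC1 at −1.82 (SE 0.29, adjusted p = 0.000146), the PRC2 partner JARID2 at −1.78 (SE 0.21, adjusted p = 2.22e-06) and the histone demethylase KDM6B at −1.73 (SE 0.28, adjusted p = 0.00017), along with CBX7 and KMT2A. Between metastases and HGA, 5 of the 22 were called higher in the metastases and 0 lower, where 7.69% and 8.40% of all genes were.

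Retinoic acid switches on anterior HOX genes in the embryo. Of 8 listed receptors and enzymes 4 were tested, and 2 were called higher in HGA, as were 12.6% of all genes. These were ALDH1A1, which makes retinoic acid, at 3.29 (SE 0.74, adjusted p = 0.00808) and CYP26B1, which breaks it down, at 1.88 (SE 0.41, adjusted p = 0.0051). CYP26B1 could pass the filter through HGA alone, so nothing is read from that count. Of 8 listed caudal, ParaHox and EVX genes 2 were analysed here and 0 could be tested between HGA and primary AGASAC. EVX1, beside HOXA, ran from 0 to 1.72 CPM (median 0) in HGA, 0 to 10.7 CPM (median 3.12) in primary AGASAC, of which 9 lay above every HGA, and 7.16 to 13.1 CPM (median 10.0) in the metastases. It could pass the filter between metastases and HGA through the metastases alone, where its log2FC was 5.16 (SE 0.89, adjusted p = 0.00322) and 7.69% of all genes were called higher. The genes that flank the clusters were tested in 9 cases, of which 2 were called higher and 0 lower in HGA, against 12.6% and 12.5% of all genes. Of all genes 25.1% were called in either direction. These were HIBADH, beside HOXA, at 2.49 (SE 0.29, adjusted p = 2.49e-06), and MTX2, beside HOXD, at 1.57 (SE 0.22, adjusted p = 2.74e-05). LNPK, the other flanking gene of HOXD, had 0.54 (SE 0.27, adjusted p = 1). Of 6 limb and hindgut patterning genes 0 could be tested in that comparison.

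Apart from the named HOX genes, 15 further genes lay inside the clusters, of which 5 were tested between HGA and primary AGASAC and 2 were called lower in HGA, as were 12.5% of all genes. These were LOC607625, whose call was lost in most tests that left out 1 sample, and LOC102156194, a noncoding RNA in the HOXB cluster. LOC102156194 ran from 0 to 8.20 CPM (median 1.88) in HGA and from 1.96 to 124 CPM (median 9.44) in primary AGASAC, with a log2FC of −3.27 (SE 0.79, adjusted p = 0.0149). It was highest in AGASAC 3, at 124 CPM, and in metastasis 3, at 119.6 CPM, which are high in HOXB2 as well.

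Some markers of other cells differed between the groups as well. The summed level of 8 muscle markers was 21.4 to 830.2 CPM (median 130.2) in primary AGASAC, where ACTA1 was most often the most abundant, 6.02 to 79.3 CPM (median 27.6) in HGA and 4.87 to 75.6 CPM (median 26.1) in the metastases. Of the 8 muscle markers 4 were tested and only ACTA1 was called, lower in HGA as were 12.5% of all genes, at −6.38 (SE 1.03, adjusted p = 0.000205), while MYH11 had 1.25 (SE 0.61, adjusted p = 0.955). ACTA1 could pass the filter through primary AGASAC alone, so nothing is read from that count. The sum of 8 fibroblast markers was 1232 to 5782 CPM (median 2591) in HGA, 1025 to 7966 CPM (median 3576) in primary AGASAC and 744 to 12992 CPM (median 2178) in the metastases, and 0 of the 8 were called, against 25.1% of all genes. Endothelial markers summed to 193 to 556 CPM (median 231) in HGA and 52.9 to 227 CPM (median 133) in primary AGASAC, and 2 of 5 were called higher in HGA, against 12.6% of all genes. B and T cell markers summed to 34.8 to 56.9 CPM (median 43.0) in the metastases, 10.9 to 99.9 CPM (median 23.8) in primary AGASAC and 0.615 to 71.5 CPM (median 6.81) in HGA, with 1 of 8 tested and 0 called, against the same 25.1%. Of 5 markers of colon and rectal epithelium 3 were analysed here, and LGALS4, the only 1 tested, was called higher in HGA, at 3.14 (SE 0.29, adjusted p = 5.03e-08). In HGA 10 it stood at 36.6 CPM, within the 34.3 to 57.6 CPM of primary AGASAC. KRT20 had 0 counts in 7 of 10 HGA and reached 13.1 CPM in AGASAC 4 and 20.4 CPM in metastasis 4, and VIL1 was at or under 3.82 CPM in HGA and 2.78 CPM in primary AGASAC. The part of muscle, stroma, vessels, lymphocytes or gut epithelium in the HOX differences was not tested.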

How the data were processed

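QuantSeq 3′ libraries of 25 samples were used. The authors trimmed reads (cutadapt), aligned them to CanFam3.1 (STAR) and deposited counts per gene (featureCounts, with reads left over counted again on genes lengthened at the 3′ ends, multi-mapped reads split), not normalized, with no tool versions given. The 25 columns of normalized counts per sample were not used, nor was the deposited comparison, which holds the authors' DESeq2 mean, fold change, standard error and p-values.

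Counts were fitted on the whole table in R 4.3.3 with edgeR 4.0.16, filterByExpr (minimum count 10, minimum total 15), TMM scaling and the quasi-likelihood test, and a call needed an adjusted p (Benjamini-Yekutieli) up to 0.05 with log2FC at most −1 or at least 1. The SE is log2FC over the root of F. CPM use TMM factors over 25 samples. DESeq2 1.42.0 (Wald), RLE or library size alone, other filters, replicate blocks, batches and leaving out each sample were the alternatives. Both tools were tested on simulated data.

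Values are given for the called HOX genes and the HOX gene with the highest mean CPM of each cluster. The other HOX genes with values, LOC607625, LNPK and the alternatives without a filter for genes it dropped were chosen after values were seen. The members and lists were chosen with earlier results of these data known. By the labels, a dog's tumors share a number. In 4 of 4 dogs their deviations from the group means went together, with r of 0.428 to 0.730 across genes, while equal numbers in the other comparisons name different dogs. Single values of 2 genes are not reported here. A chi-square check of all pairs in a group found no duplicates.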

Additional observations from a re-analysis of the deposited data

Results flagged for a closer look

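Dixon's test was applied to 28 groups of HGA or metastases, on log2 of CPM plus 1, and the primary AGASAC were not tested. Chance alone sets a sample apart in about 1 in 20, and 2 were set apart. HGA 4 lay far from the other HGA in HOXD9, at 29.5 CPM against 96.3 to 314 CPM in the other 9. Metastasis 3 lay apart in HOXD10, at 3.54 CPM against 0 in the other 3 metastases, where any count above 0 meets the rule. The causes were not tested.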

How the results depend on the processing

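Between HGA and primary AGASAC 5 HOX genes were called, and 5 with RLE scaling (24.9%), 7 with library size alone (26.6%), 5 with a block on sample numbers (21.4%) and 5 with no fold threshold (30.9%), where the share of all genes called under the same setting is in parentheses. The count was 13 with DESeq2 (which tested 34, 17.9%) and 8 with no filter (which tested 34, 16.2%). Among those DESeq2 called, HOXB2, HOXB8, HOXC13, HOXD10 and HOXD11 had been dropped by the filter. The count was 2 with at least 10 counts in every sample (which left 2 to test, 19.6%), 8 with all 15 AGASAC (27.4%), 1, 4 and 1 within batch 5, 6 and 8 (2.12%, 4.84% and 2.46%), 3 with the batch as a term (24.4%), 3 within naming series A (16.1%), 10 with Benjamini-Hochberg adjustment (30.9%) and 3 to 6 with 1 sample left out (23.9% to 27.3%). Batches hold fewer samples, and the cause of the other changes was not tested. Library size alone moved the median log2FC of all genes by −0.30, and HOX values moved with it. HOXA9 and HOXA10 changed sign within batch 6, to 0.61 and 0.69, and HOXA5 and HOXB3 within batch 8, to 0.11 and 0.58. HOXB4 did not pass the filter there.

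Between metastases and primaries every alternative gave 0, the replicate block on dogs included. With 1 sample left out the log2FC of HOXD9 ran from −2.05 to 3.12 and that of HOXB2 from −4.94 to 1.76. That of HOXC6 ran from −0.21 to 0.67 and was −0.16 with all 11 primaries.

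Between metastases and HGA 3 were called, and 3 with RLE scaling (16.0%), with no filter (9.39%) and with no fold threshold (16.5%). The count was 5 with library size alone (16.5%) and 5 with DESeq2 (which tested 25, 12.9%). With at least 10 counts in every sample it was 0 (15.1%), where 3 were left to test and HOXA13, HOXC13 and HOXD11 could not be tested. It was 0 with the replicate block, which pairs different dogs and keeps 4 HGA (5.33%), 10 with Benjamini-Hochberg adjustment (26.8%) and 2 to 7 with 1 sample left out (11.4% to 19.5%). HOXA10 changed sign in that block, at −0.17, and with 1 sample left out it ran from −0.74 to 2.68. The cause was not tested. In HGA, 3 counts are up to 1.84 CPM, so lower levels were not detectable in the shallowest sample.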

Other observations

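HOTAIR, a noncoding RNA of the HOXC cluster, reached 12.5 CPM in HGA 3 and 6.95 CPM in AGASAC 4 and was at or under 0.965 CPM in the metastases. The sum of all 34 HOX genes ran from 382 CPM in metastasis 1 to 1588 CPM in metastasis 3, so dog 1 and dog 3 held the ends of the range over all 25 samples. In the primary tumors of these dogs it was 388 and 1231 CPM. The 8 fibroblast markers summed to 12992 CPM in metastasis 2, against 744, 1327 and 3029.6 CPM in metastases 1, 3 and 4, and metastasis 2 had the most HOX genes above 3 counts among the metastases, 23. The part of fibroblasts in that count was not tested.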
